A study of Mus musculus with 4 samples.

Results

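The genes described here belong to the earliest granule programme of myeloid cells: the granule serine proteases Prtn3, Ctsg and Elane, the peroxidase Mpo, the membrane protein Ms4a3, the protease inhibitor Serpinb1a, and the transcription factors Cebpa, Cebpb and Cebpe. These 9 genes were chosen by symbol, and every probe set that the platform annotation pairs with exactly 1 of them was taken. For 8 of the 9 genes there were 10 such probe sets, out of 34945 probe sets that name a single one of 18193 genes. No probe set used here names Cebpe. Each gene was represented by its brightest probe set.

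The cells were GFP-positive leukemic blasts of mice, sorted on the reporter that the retrovirus carried. The leukemia, of the M7 or megakaryoblastic class, arose after retroviral insertional mutagenesis of fetal progenitors with a mutant Gata1, called Gata1s in the title of the series. The groups were blasts of the spleen and blasts of the peripheral blood, each taken from the same 2 mice, so that there were 2 arrays per tissue. Both groups carry the Gata1 mutation, the retrovirus and the same leukemia designation, T6(6), no treatment was given, and the cells were not cultured. There was no healthy or Gata1 wild-type sample among the 4 arrays, and strain, age and sex are not given in the sources used here. With 1 array per tissue and mouse, every SD below is a spread between 2 animals of a single leukemia designation. Each SE, interval and p value comes from a fit that also draws on the spread pooled over all tested genes. None of them extends to other leukemias.

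Early myeloid progenitors switch on C/EBP transcription factors, and these, with the ETS factor PU.1, drive the genes of the first granules, the azurophil granules. Prtn3 (proteinase 3), Elane (neutrophil elastase) and Ctsg (cathepsin G) are serine proteases that are made at the promyelocyte stage, stored in these granules and no longer transcribed in the mature neutrophil. Cebpa acts at the entry to the granulocyte lineage, Cebpe at the later stage of secondary granules, and Cebpb in granulocyte production under stress. Megakaryocytes arise from another branch of blood formation, and their granules carry other cargo.

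The arrays had like medians, between 103.7 and 110.6 intensity units, and 1.60% to 2.17% of the probe set values per array were negative. Of 10 listed markers of the labelled cell class, megakaryocytes, 8 had a probe set and 7 were bright enough for testing as defined next. Pf4, a platelet chemokine of alpha granules, lay between 7507 and 8680 on the 4 arrays, while Treml1, a platelet receptor, had 232 and 319 in spleen against 82.8 and 73.9 in blood. Itgb3, a platelet integrin chain, was dim, with 39.7 and 122.6 in spleen against 15.9 and -4.17 in blood. Values are intensities on a linear scale, and differences are on the scale of log2(intensity + 16), which understates changes of dim genes. The limit for testing was the median over all probe sets, equivalent to an intensity of 106, and 11614 genes were at or above it on average. Of the 8 measured early myeloid genes 7 were tested, and Elane lay below this limit. The limit is no measure of background, and because probe sets bind with unequal strength no gene's level is set against another's.

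Among the granule genes, 4 had a promoter record in RefSeq (build GRCm38.p6), and the 250 bases before the annotated start are shown for them, because Prtn3 and Elane are next to each other on chromosome 10 and Prtn3 and Ctsg were both higher in spleen in both mice. Letters are 5′ to 3′ on the strand of the gene, and capitals mark GAGGAA on either strand, the core of the purine box to which PU.1 is known to bind.
Prtn3, chr10:79879417-79879666, plus strand: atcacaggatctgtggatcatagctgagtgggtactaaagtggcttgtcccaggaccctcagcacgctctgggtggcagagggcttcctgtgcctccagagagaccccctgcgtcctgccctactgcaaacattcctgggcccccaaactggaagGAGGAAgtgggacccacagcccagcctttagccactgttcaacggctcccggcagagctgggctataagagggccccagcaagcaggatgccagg
Elane, chr10:79886062-79886311, plus strand: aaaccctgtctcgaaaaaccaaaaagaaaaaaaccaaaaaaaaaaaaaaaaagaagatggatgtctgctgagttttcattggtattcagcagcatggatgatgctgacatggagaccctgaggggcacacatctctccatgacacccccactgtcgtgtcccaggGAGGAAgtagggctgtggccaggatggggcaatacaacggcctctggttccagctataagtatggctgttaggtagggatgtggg
Ctsg, chr14:56102575-56102824, minus strand: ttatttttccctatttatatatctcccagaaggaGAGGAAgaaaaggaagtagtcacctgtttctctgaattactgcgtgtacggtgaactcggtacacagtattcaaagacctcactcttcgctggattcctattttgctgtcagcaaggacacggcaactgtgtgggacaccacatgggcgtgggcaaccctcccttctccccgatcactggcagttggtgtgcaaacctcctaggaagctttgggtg
Mpo, chr11:87793534-87793783, plus strand: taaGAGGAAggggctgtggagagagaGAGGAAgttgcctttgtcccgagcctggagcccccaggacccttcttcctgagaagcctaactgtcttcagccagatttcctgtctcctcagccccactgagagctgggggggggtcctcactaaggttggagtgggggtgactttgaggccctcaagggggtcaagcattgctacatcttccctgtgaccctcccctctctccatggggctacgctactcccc
GAGGAA was found once in Prtn3, beginning 95 bases before the start, once in Elane, beginning 85 bases before it, once in Ctsg, beginning 216 bases before it, and 2 times in Mpo, beginning 247 and 224 bases before it. It was not found in the same window of the other 3 members with a record, Ms4a3, Cebpa and Cebpb. Among 32851 promoter records of the mouse, 23.3% hold it in this window. The C/EBP motif TTNNGCAA, in which N is any base, occurred in 9.56% of the records, and TTGCGCAA, a special case of it, in 0.164%. Neither was in the window of any of the 7 members, which says only that these letters are not there. The search for GAGGAA was added after the values had been seen.

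Prtn3 was the member with the largest difference of the same direction in both mice. Its intensity was 1609 and 1340 in spleen of mouse 1 and mouse 2, against 951 and 931 in blood of the same mice. Both spleen arrays lay above both blood arrays, and the blood arrays of the mice were almost the same. The mean was 1474 ± 190 in spleen and 941 ± 13.8 in blood (SD, n = 2 each).

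Within the mice, Prtn3 was higher in spleen by 0.75 in mouse 1 and 0.52 in mouse 2 on the log2 scale. The fitted difference was 0.63 ± 0.13 (SE), with a 95% interval from 0.31 to 0.96, equal to 1.55-fold. With limma the unadjusted p was 0.00296, and the adjusted p over all tested genes was 0.201, so the gene did not pass. At least as large a difference in both mice, toward spleen, was found for 149 of the 11614 tested genes, Prtn3 included.

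Ctsg, which cleaves after bulky residues where Prtn3 and Elane prefer small ones, had the same order. Its intensity was 758 and 784 in spleen of mouse 1 and mouse 2, against 529 and 616 in blood. The groups did not overlap, and the spleen arrays were closer to each other than the blood arrays. The difference was 0.51 in mouse 1 and 0.34 in mouse 2, and the fitted value was 0.42 ± 0.13 (SE) or 1.34-fold, with an unadjusted limma p of 0.0147 and an adjusted p of 0.314. At least this difference in both mice was shared by 469 tested genes. Without blood replicate 1 the difference was 0.32 and the unadjusted limma p was 0.099.

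Elane lies directly after Prtn3 in the RefSeq order of coding genes. It was dim: its intensity was 107 and 64.1 in spleen of mouse 1 and mouse 2, against 73.1 and 73.9 in blood. The spleen arrays lay on either side of the blood arrays. The within-mouse differences were 0.46 and -0.17, on a gene that was not tested. Whether such a value is signal or background of the probes cannot be read from the deposited intensities.

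Mpo, the enzyme that makes hypochlorous acid in these granules, was dim as well and flat. Its intensity was 153 and 128 in spleen of mouse 1 and mouse 2, against 137 and 157 in blood. The groups overlapped, and the mice went in opposite directions, by 0.14 and -0.26. The fitted difference was -0.06 ± 0.14 (SE), with a 95% interval from -0.39 to 0.27 and a limma adjusted p of 0.888. This interval does not exclude small changes of either sign.

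**Figure D1:**
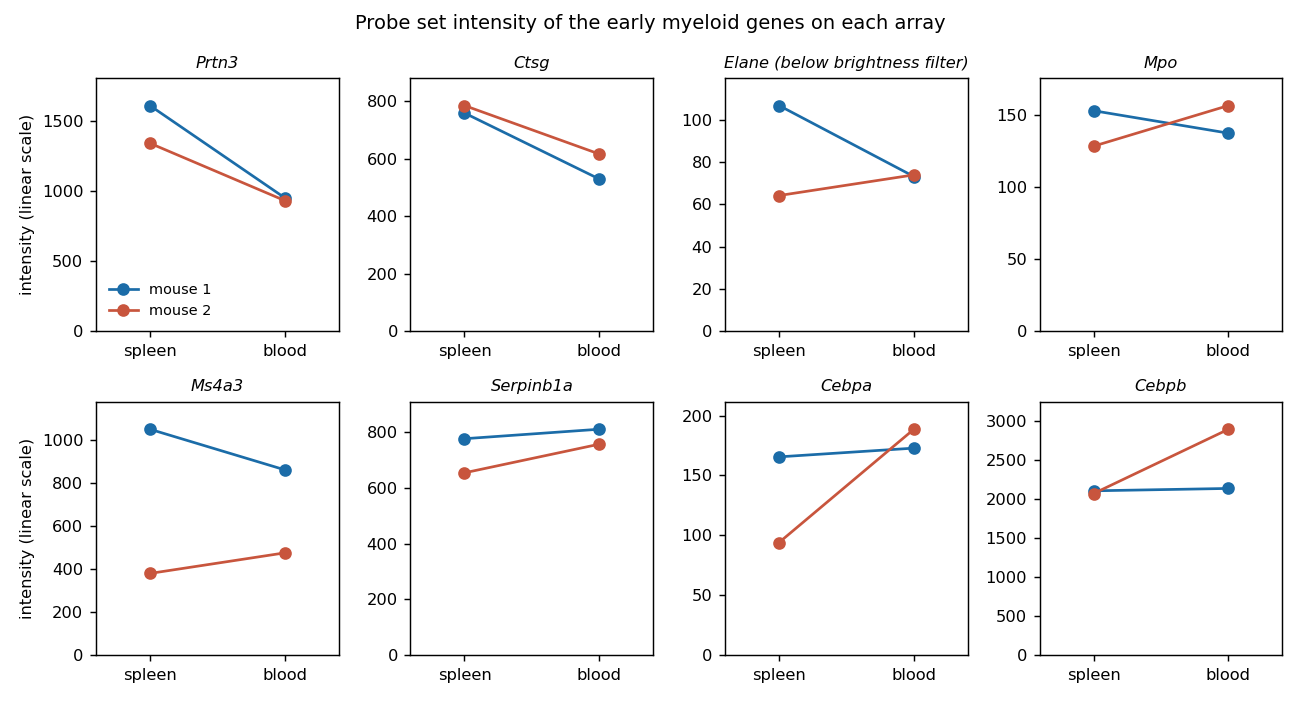
Intensity of the main probe set of the 8 measured genes (vertical axes, linear, each from 0) in spleen and blood, with a line joining the arrays of mouse 1 and of mouse 2. Both lines slope down toward blood for Prtn3 and Ctsg, meet in blood for Elane, cross for Mpo, and stay apart by mouse for Ms4a3.

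Of the 7 tested members, 0 passed at an adjusted p of 0.05, as did 0.0% of all tested genes. At an unadjusted p under 0.05, 943 genes were higher in spleen, which is 8.12% of those tested, and 2 members were among them, Prtn3 and Ctsg. On the lower side 500 genes, 4.31%, and 0 members had such a p. That split over all genes depended on the setting: it was 1310 higher and 354 lower with each array centred on its median, 765 and 602 with quantile normalization, 768 and 772 without spleen replicate 1, and 428 and 239 without blood replicate 2. Both spleen arrays lay above both blood arrays for the same 2 members and for 27.5% of all tested genes, and below both blood arrays for 2 members, Cebpa and Cebpb, and for 17.6% of all tested genes. Mpo and Ms4a3, 2 of the 7, went in opposite directions in the mice, as 36.4% of all tested genes did. Serpinb1a, Cebpa and Cebpb, 3 of the 7, were lower in both mice, as were 25.1% of all tested genes. With each array centred on its median that count was 2, and Cebpb had the smallest of these differences, -0.02 in mouse 1. Prtn3 and Ctsg were higher in both mice, as were 38.5% of all tested genes. With 7 genes, a single gene moves each of these shares widely. The median difference of the 7 was -0.06, with 0.14 in mouse 1 and -0.26 in mouse 2, beside 0.03, 0.07 and 0.01 for all tested genes.

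Serpinb1a encodes an intracellular inhibitor that blocks elastase, proteinase 3 and cathepsin G inside the cells that make them. Its intensity was 776 and 654 in spleen of mouse 1 and mouse 2, against 811 and 757 in blood. It was lower in spleen in both mice by small amounts, -0.06 and -0.21, but the groups overlapped. The fitted difference was -0.13 ± 0.13 (SE), with an adjusted p of 0.713 in limma. It was -0.25 without spleen replicate 1, -0.01 without spleen replicate 2 and -0.09 without blood replicate 1. The second probe set, which was dimmer, had 158 and 98.5 in spleen against 169 and 114 in blood, with differences of -0.09 and -0.19. Both probe sets therefore had the same direction in both mice.

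**Figure D2:**
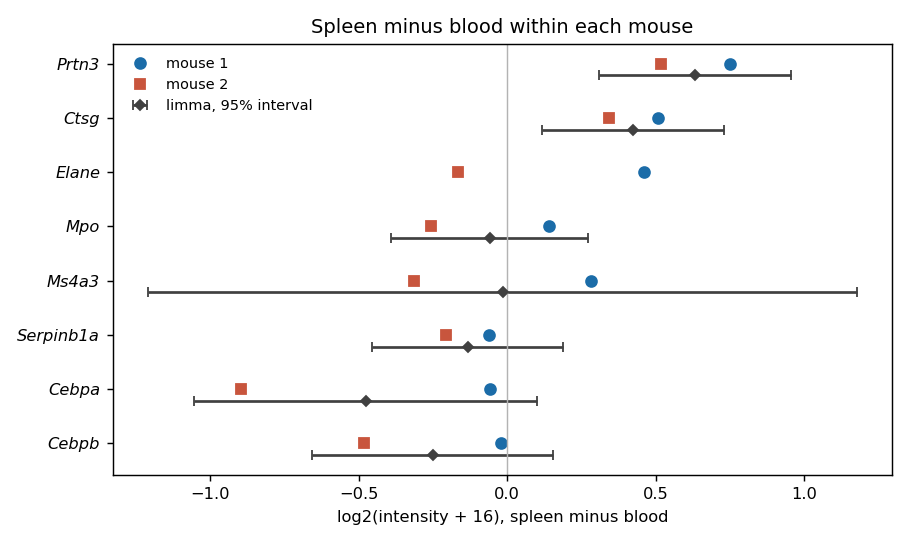
Spleen minus blood on the log2(intensity + 16) scale for each measured gene (horizontal axis), as a circle for mouse 1, a square for mouse 2 and a diamond with a 95% interval for the limma fit of the 7 tested genes. The intervals of Prtn3 and Ctsg lie above 0 and those of the other 5 genes include 0.

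Neither of the 2 measured C/EBP factors passed the test, and the 95% intervals of both include 0. Cebpb had 2104 and 2069 in spleen of mouse 1 and mouse 2, against 2134 and 2893 in blood. Blood of mouse 2 stood above the other 3 arrays, which were alike. The within-mouse differences were -0.02 and -0.48, and the fitted value was -0.25 ± 0.17 (SE), with a 95% interval from -0.66 to 0.15 and a limma adjusted p of 0.572. It was -0.47 without blood replicate 1, with an unadjusted limma p of 0.0296, and -0.03 without blood replicate 2. The second Cebpb probe set gave 394 and 517 in spleen against 525 and 719 in blood, with differences of -0.40 and -0.46. In mouse 1 the probe sets thus disagreed on the size, and the brighter one was near 0.

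Cebpa had intensities of 165 and 93.9 in spleen of mouse 1 and mouse 2, against 173 and 189 in blood. Here spleen of mouse 2 stood below the other arrays, and the groups did not overlap. The differences were -0.06 and -0.90, and the fit gave -0.48 ± 0.24 (SE), with a 95% interval from -1.05 to 0.10 and a limma adjusted p of 0.468. Leaving out spleen replicate 2 gave -0.12, and leaving out spleen replicate 1 gave -0.84 with an unadjusted limma p of 0.00121. For the brighter Cebpb probe set and for Cebpa the within-mouse difference was larger in mouse 2, and for the second Cebpb probe set the mice were nearly equal.

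By their median, markers of mature granulocytes also differed most in mouse 2. On the list of mature neutrophil markers all 9 tested genes were below blood in both animals, beside 25.1% of all tested genes. The median difference of the 9 was -0.31 in mouse 1 and -3.61 in mouse 2, and Lcn2 was near 0 in mouse 1, at -0.03. Among the untested markers, Camp and Cd177 were lower in both mice. Itgam and Padi4 were higher in spleen of mouse 1, by 0.37 and 0.80, with -1.23 and -0.52 in mouse 2. The summed intensity of the 13 measured markers was 4547 and 1239 in spleen of mouse 1 and mouse 2, against 7231 and 18634 in blood. None of the 13 was at or below 0 on every array, and Camp was so on at least 1 array. S100a9, a calcium-binding protein of mature neutrophils, had 1146 and 144 in spleen against 2333 and 5862 in blood. Its differences were -1.02 and -5.20, while those of Prtn3 were 0.75 and 0.52. Of the 9 genes 7 were lower at an unadjusted limma p under 0.05, beside 4.31% of all tested genes, and 0 at an adjusted one. In sorted bulk samples fewer cells of a type and less RNA per cell cannot be told apart.

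Monocyte and macrophage markers had medians of 0.50 in mouse 1 and -0.86 in mouse 2 over 7 tested genes. Of the 7, 5 went in opposite directions in the mice, beside 36.4% of all tested genes. In both mice 1 was higher and 1 lower, beside 38.5% and 25.1%. C1qa, C1qb and C1qc, which were not tested, had differences of 3.21, 2.63 and 2.43 in mouse 1 and 0.00, -0.03 and 0.72 in mouse 2. Cd14, also untested, was lower in both mice. The summed intensity of the 11 measured monocyte and macrophage markers was 2436 and 1202 in spleen of mouse 1 and mouse 2, against 1542 and 3819 in blood. C1qa was at or below 0 on some arrays. Cebpb is also active in monocytes, and its highest array, blood of mouse 2, was the highest of both marker sums. Spleen of mouse 2, the lowest array of Cebpa, was the lowest of both. The same arrays were the highest and the lowest for the summed intensity of 8 measured T and NK cell markers. It was 4834 and 1500 in spleen of mouse 1 and mouse 2, against 3270 and 6021 in blood. Gzma, Gzmb, Prf1 and Ncr1, genes of cytotoxic cells, had this order. Cd3d, Cd3e and Cd3g were instead highest in blood of mouse 1, and Cd2 was lowest in spleen of mouse 1. The order is therefore not particular to myeloid markers, though only part of the T and NK list shares it. The myeloid lists share it only in part as well. C1qa, C1qb and C1qc were highest in spleen of mouse 1, and F13a1 was highest in spleen of mouse 2. Fcgr1 and the neutrophil marker Padi4 were lowest in blood of mouse 1, and the neutrophil marker Cxcr2 was highest there. The part of any of these cells in the values of Cebpa and Cebpb was not tested.

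**Figure D3:**
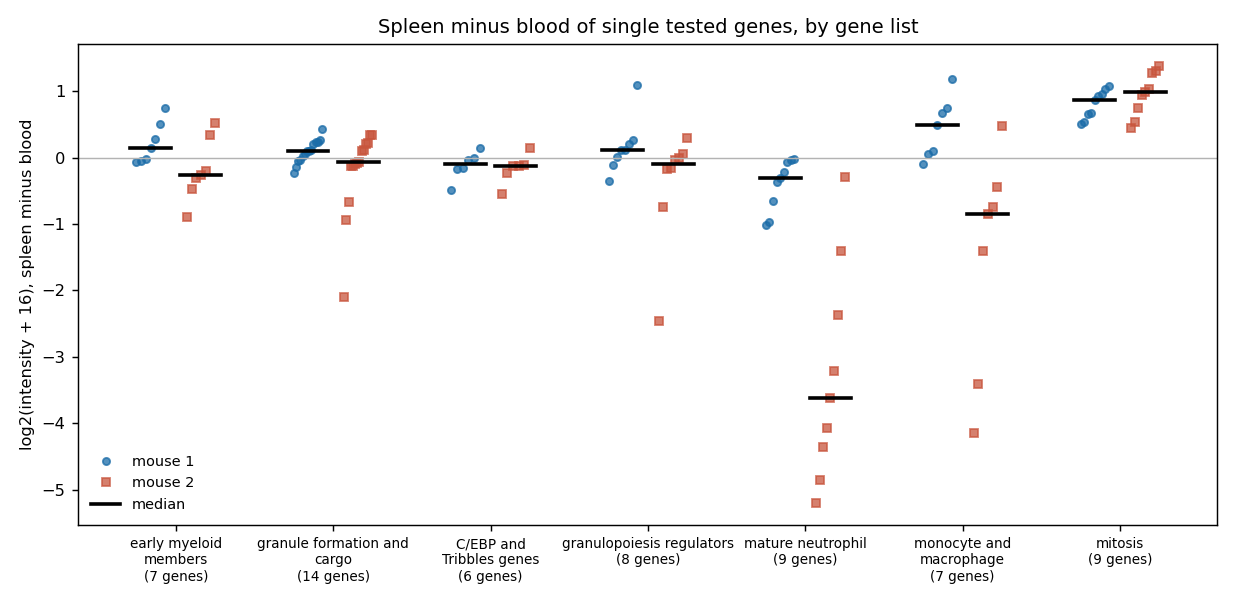
Spleen minus blood on the log2(intensity + 16) scale (vertical axis) of single tested genes, by gene list, with circles for mouse 1, squares for mouse 2 and bars for medians. The squares of the mature neutrophil list reach -5.20, whereas those of the early myeloid members lie between -0.90 and 0.52.

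Genes of mitosis were higher in spleen, as were Prtn3 and Ctsg. The list of 10 mitosis genes was drawn up because such genes moved with tissue in earlier results of these data. Its direction was therefore known in advance and is no independent result. All 9 measured genes were higher in both mice with an unadjusted limma p under 0.05, beside 8.12% of all tested genes. At an adjusted p 0 passed. Their medians were 0.87 in mouse 1 and 0.99 in mouse 2. Their summed intensity was 17047 and 18935 in spleen of mouse 1 and mouse 2, against 10637 and 11230 in blood. The part of cell division in the values of the proteases was not tested.

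The rest of the granule pathway went in no single direction, with counts near the shares over all tested genes. Of 14 tested genes of granule formation and cargo, 5 were higher and 3 lower in spleen in both mice, beside 38.5% and 25.1%. At an unadjusted limma p under 0.05, 1 was higher, beside 8.12%, and 0 passed over all genes. The median over the list was -0.01. The gene with that p was Gusb, a lysosomal glucuronidase, with 1742 and 1834 in spleen against 1453 and 1451 in blood, a difference of 0.30 ± 0.11 (SE) and a limma adjusted p of 0.373. Hexa, a lysosomal hexosaminidase, differed by 0.29 ± 0.15 with an adjusted p of 0.484.

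Ctsc and Srgn bear directly on the proteases. Ctsc, the dipeptidase that activates all 3 proteases by trimming their amino end, had 6539 and 5717 in spleen against 6280 and 6262 in blood, with overlapping groups and a difference of -0.04 ± 0.12 (SE). Srgn, the proteoglycan core that holds proteases in granules, had 6480 and 6622 in spleen against 6674 and 6939 in blood, with a difference of -0.05 ± 0.11. Neither passed, with limma adjusted p values of 0.922 and 0.868. Hp and Mgst1, which stand on the same list, were below the limit for testing. Both were lower in spleen of mouse 2, by -3.96 and -3.45, with -0.70 and 0.02 in mouse 1.

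The regulators around the C/EBP factors were lower more often than higher, mostly by small amounts. Of 6 tested genes of the other C/EBP and Tribbles group, 5 were lower and 1 higher in spleen in both mice. The shares of all tested genes were 25.1% and 38.5%. Of the 5 lower genes only 1, Trib2, had an unadjusted limma p under 0.05, beside 4.31% of all tested genes. Trib2, a pseudokinase that targets C/EBP alpha for degradation, had 103 and 100.3 in spleen against 152 and 153 in blood. Its groups did not overlap, and the arrays of a tissue were nearly equal. It differed by -0.52 ± 0.11 (SE), with an unadjusted limma p of 0.00309 and an adjusted p of 0.201. Trib1, a relative with the same activity, differed by 0.14 ± 0.13. Ddit3, a C/EBP relative of the stress response, differed by -0.15 ± 0.12.

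Among 8 tested granulopoiesis regulators, 2 were higher and 2 lower in both mice, beside 38.5% and 25.1% of all tested genes. Of each direction 1 had an unadjusted limma p under 0.05, beside 8.12% and 4.31%. Spi1, which encodes PU.1, had 1043 and 939 in spleen against 1331 and 1578 in blood, a difference of -0.54 ± 0.14 (SE) with a limma adjusted p of 0.255. Its direction was opposite to that of Prtn3 and Ctsg. Cbfb, the partner of the RUNX factors, differed by 0.28 ± 0.11 with an adjusted p of 0.392. Klf4, a factor of monocytes, was too dim for testing and had differences of -0.26 in mouse 1 and -2.98 in mouse 2. Irf8, which favours monocytes over granulocytes, went in opposite directions, by 1.09 in mouse 1 and -2.46 in mouse 2.

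Receptors of the cytokines that act on myeloid progenitors were also uneven. Of 5 tested, 1 was higher and 2 were lower at an unadjusted limma p under 0.05, beside 8.12% and 4.31% of all tested genes. Over all genes 0 passed. Kit, the stem cell factor receptor of early progenitors and mast cells, had 2084 and 2156 in spleen against 1451 and 1313 in blood, a difference of 0.61 ± 0.12 (SE) with an adjusted p of 0.180. Csf2ra, the chain that binds GM-CSF, had 1051 and 829 in spleen against 1446 and 1613 in blood, a difference of -0.70 ± 0.15 with an adjusted p of 0.209. Csf3r, the G-CSF receptor, was dim, with 61.2 and 52.6 in spleen against 94.7 and 152 in blood.

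The other protease inhibitors gave no single gene at an unadjusted p under 0.05 among the 5 tested with limma, and 0 passed over all genes. Of all tested genes 8.12% had such a p on the higher side and 4.31% on the lower side. Slpi, a secreted inhibitor of elastase and cathepsin G, had 720 and 913 in spleen against 864 and 990 in blood and differed by -0.19 ± 0.16 (SE). Serpinb6a differed by -0.06 ± 0.11. Serpinb1b, a close relative of Serpinb1a, was dim on all arrays, between 25.7 and 52.1.

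Ms4a3, a membrane protein of the granulocyte-monocyte progenitor and of basophils, separated the mice and not the tissues. In mouse 2 it had 379 in spleen and 475 in blood, against 1050 in spleen and 861 in blood of mouse 1. Both arrays of mouse 2 lay below both of mouse 1. Mouse 2 minus mouse 1 was -1.43 in spleen and -0.84 in blood, and 20 tested genes, Ms4a3 included, were lower in mouse 2 by at least 0.84 in both tissues. Between spleen and blood the difference was 0.28 in mouse 1 and -0.31 in mouse 2. The fitted value was -0.02 ± 0.49 (SE), with a limma adjusted p of 0.991. This fit leaves the pairing by mouse out, so its SE includes the difference between the mice. With mouse as a block the SE was 0.17 and the limma adjusted p was 0.968. With 1 animal on each side there is no test of the mice.

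Serpinb1a also had both arrays of mouse 2 below both of mouse 1, by -0.24 in spleen and -0.10 in blood. For the 7 tested members this order held for 2, and for 18.2% of all tested genes. No tested member was higher in both arrays of mouse 2, which 15.6% of all tested genes were.

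Ms4a2, the beta chain of the IgE receptor, is the coding gene next to Ms4a3 on chromosome 19 in RefSeq order. It had 23.5 in spleen and 12.7 in blood of mouse 2, against 87.3 in spleen and 86.4 in blood of mouse 1, all below the limit for testing. Fcer1a, the alpha chain of that receptor, had 108 in spleen and 148 in blood of mouse 2, against 380 in spleen and 375 in blood of mouse 1. Both chains were lower in mouse 2, as Ms4a3 was, and both were singled out after their values were seen. The rest of the list was divided: of the 8 measured mast cell and basophil markers, 3 were lower and 3 higher in mouse 2 in both tissues. The third lower marker was Mcpt8, the basophil protease, which was dim, with differences of -0.06 in spleen and -0.26 in blood. Higher in mouse 2 were the mast cell tryptase Tpsb2, with differences of 0.33 in spleen and 0.42 in blood, the mast cell protease Mcpt4, with 0.07 and 0.23, and Hdc, the histamine-forming enzyme, which was dim, with 0.30 and 0.33. The summed intensity of the 8 markers was 640 in spleen and 771 in blood of mouse 2, against 933 in spleen and 956 in blood of mouse 1. Without the 2 receptor chains the order turned, with 508 in spleen and 610 in blood of mouse 2, against 466 in spleen and 495 in blood of mouse 1. Cpa3, a defining mast cell protease, lay between -9.01 and 11.8, near 0 on every array, and Mcpt8 lay between 27.3 and 36.0. The part of basophils or mast cells in the Ms4a3 values was not tested.

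**Figure D4:**
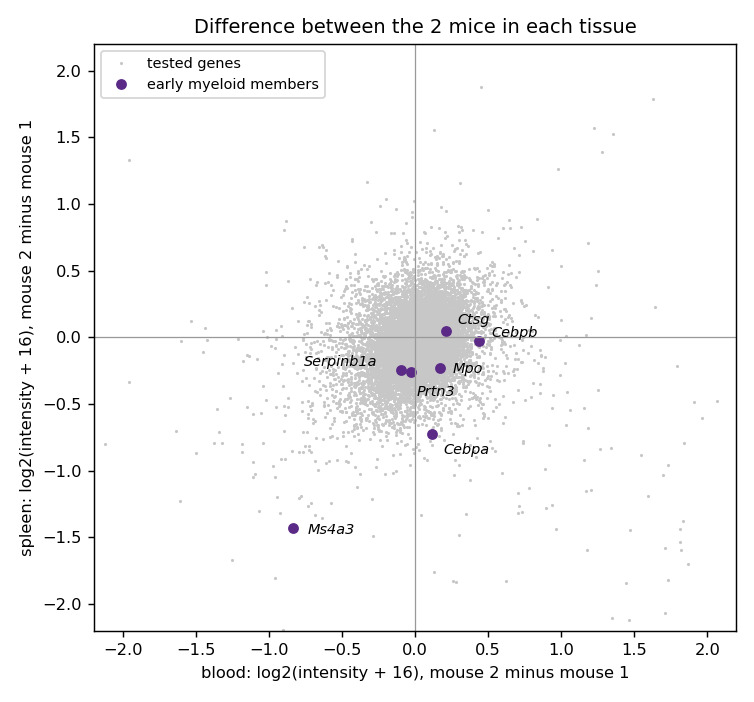
Mouse 2 minus mouse 1 on the log2(intensity + 16) scale in blood (horizontal axis) and in spleen (vertical axis) for all tested genes as grey points and the 7 tested members as labelled dots, with 17 genes outside the plotted range. Ms4a3 lies at -0.84 and -1.43, away from the other 6 members.

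The genes whose levels were most like those of a member were found by the root mean square distance between log2 values over the 4 arrays, each gene centred on its own mean. Small distances are common where 11614 genes are compared over 4 arrays, and they are descriptions without a test. For Prtn3 the nearest was Ccnd1, a D-type cyclin, at a distance of 0.03, with 284 and 243 in spleen against 172 and 165 in blood. Ube2q2, a ubiquitin-conjugating enzyme, and Mavs, an adaptor of RNA sensing, followed at 0.03 and 0.04.

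For Ctsg the nearest was Trip13, an ATPase of the spindle checkpoint, with 936 and 980 in spleen against 654 and 758 in blood, then the copper transporter Slc31a1, both at 0.01. For Cebpa the nearest were Dlx1, Klf10 and Ssh1, at 0.04, 0.05 and 0.06, and Klf10, a TGF-beta-induced repressor, had 493 and 323 in spleen against 543 and 595 in blood. For Cebpb the nearest was the histone methyltransferase Kmt2b at 0.01. For Ms4a3 the nearest, Edn3, encoding an endothelin, stood farther off at 0.10, with 95.7 in spleen and 141 in blood of mouse 2 against 270 in spleen and 229 in blood of mouse 1. For Mpo and Serpinb1a, which range over 0.26 and 0.30 log2 units, the nearest genes, Rflnb and Abcb4, carry little information.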

How the data were processed

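The 4 arrays were hybridised with biotin-labelled cRNA of total RNA extracted with Trizol and cleaned on columns, per the labels' protocols. From their range, the deposited numbers are linear intensities, 1 per probe set. The authors' probe summary, background correction and scaling are not stated in the labels. The number of arrays limits the precision.

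The deposited scaling was kept, negative values were replaced by 0, and log2 was taken after adding 16. The replacement was added to the planned log2 because such values occur. Of 45101 probe sets, 34945 had 1 gene symbol and 932 several; the rest named no gene. Symbols were updated by Entrez identifier from RefSeq GRCm38.p6, which held 34741 of them. Spleen was compared with blood over 11614 genes with limma 3.58.1 (lmFit, eBayes, two-sided, tissue as the sole term) in R 4.3.3, with Benjamini-Hochberg adjustment. Unadjusted p values are also from that fit. With 2 arrays per tissue an exact permutation test cannot pass 0.05. The test was checked on simulated data. Per the labels, spleen and blood with the same mouse number come from 1 animal, so the arrays are paired; across genes, which are not replicates, the blood and spleen values of mouse 2 minus mouse 1 had a Pearson r of 0.10.

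Named genes are all members, for each tested member the 3 nearest genes, and from each pathway list the leading 3 genes. Genes of any list with an unadjusted limma p under 0.05 were added, and some of all these are shown here. Mcpt8, Ms4a2, Fcer1a, Mcpt4, C1qa, Irf8, Ctsc, Srgn, Mgst1, Serpinb6a, Pf4 and Camp were named in addition after their values were seen. So were the marker genes Itgb3, Prg2, Epx, Siglecf, Tpsb2, Hdc and Cpa3. The same holds for Gzma, Gzmb, Prf1, Ncr1, Cd3d, Cd3e, Cd3g and Cd2. It also holds for C1qb, C1qc, Cd14, Fcgr1, Padi4, Cxcr2, Itgam and Cd177. The members and lists were chosen with earlier results of these data known. Alternatives were the offset, the probe set rule, normalization, filter, mouse as a block, an intensity trend and leaving out each array. Lists for eosinophils, T and NK, B, erythroid and megakaryocyte cells were computed as well.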

Additional observations from a re-analysis of the deposited data

Results flagged for a closer look

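The difference between spleen and blood went in opposite directions in the mice for Elane, Mpo and Ms4a3, which is why these genes are listed for a closer look. Mouse 2 minus mouse 1 of this difference was -0.63 for Elane, -0.40 for Mpo and -0.59 for Ms4a3 on the log2 scale. These differences between the mice were not tested, for want of a second array of any tissue and mouse, and 36.4% of all tested genes also went in opposite directions. Elane is dim and was not among the tested genes.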

How the results depend on the processing

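No member passed at an adjusted p of 0.05 under any of the 14 alternatives. In the fit, Prtn3 and Ctsg stayed higher and Cebpa, Cebpb and Serpinb1a lower in spleen under every alternative in which they were tested. Cebpa and Mpo were too dim for the stricter filter. Members lower in both mice numbered 3 in the main setting and 2 with centred arrays or with the stricter filter. With mouse as a replicate block the adjusted p of Prtn3 was 0.190, and the block changed no call. Members with an unadjusted p under 0.05 numbered between 1 and 2 on the higher side and between 0 and 1 on the lower side when single arrays were left out. Without blood replicate 1 they were Prtn3 and, lower, Cebpb, and without spleen replicate 1 Cebpa joined on the lower side. Ms4a3 changed sign with centred arrays (0.028) and when arrays were left out, from -0.73 without spleen replicate 1 to 0.70 without spleen replicate 2. Mpo changed sign when arrays were left out, from -0.17 without spleen replicate 1 to 0.055 without spleen replicate 2; the main values of both were near 0. Over all genes, 0 passed in the main setting, 40 with the filter at the 75th percentile, 45 with an intensity trend in the prior, and between 0 and 20 when an array was left out. For these counts the cause was not tested. Directions in both mice were not recomputed without an array, since 1 mouse then lacks a tissue.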

Other observations

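Prg2, the major basic protein of eosinophil granules, had intensities of 1394 and 232 in spleen of mouse 1 and mouse 2, against 270 and 142 in blood, so that spleen of mouse 1 stood above the other 3 arrays. Epx, the eosinophil peroxidase, was dim on the same arrays, with 45.9 and 18.7 in spleen against 22.5 and 54.0 in blood. Siglecf, a lectin of eosinophils, had 1825 and 1151 in spleen against 1902 and 1790 in blood. With limma the adjusted p of Prg2 was 0.484 and that of Siglecf was 0.561.

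Over the other lists, the median spleen minus blood was 0.72 for 7 tested megakaryocyte genes, -0.53 for 7 T and NK genes (0.46 in mouse 1 and -1.72 in mouse 2, with 5 of the 7 in opposite directions), -0.05 for 4 erythroid genes, 0.24 for the 1 tested B cell gene and 0.57 for 2 eosinophil genes. Of 3 tested mast cell and basophil genes the median was -0.15.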
